A study of Homo sapiens with 192 samples.

Results

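The replication-dependent histone genes are the 68 GENCODE protein-coding genes on chr6 or chr1 with the names H1-1 to H1-6, or H2AC, H2BC, H3C or H4C followed by a number. They were chosen by name and chromosome alone, out of 20033 protein-coding genes, and 55 of them lie on chr6 and 13 on chr1. Accessibility was measured by plate-based snATAC-seq in HAP1, a near-haploid human cell line of leukaemic origin that grows attached. In this assay the Tn5 transposase cuts open chromatin and tags the ends, nuclei are sorted 1 to a well, and the reads of a well stand for 1 nucleus. The nuclei filled 2 plates of 96. Both plates hold HAP1 nuclei, with no treatment named, from 1 pool of CASB-labeled and unlabeled cells. CASB attaches a DNA sample barcode to the membrane of the cell or nucleus through concanavalin A. No difference between the plates is named, and the label of each cell is not known here. Each plate was therefore treated as 1 mixed sample, and cells gave no p-value and no standard error.

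Replication-dependent histone genes make the bulk of the histones that package newly copied DNA. They are transcribed mainly in S phase, lack introns, and give mRNAs that end in a stem-loop in place of a poly(A) tail. The coactivator NPAT gathers at their clusters in nuclear histone locus bodies, and many H2A and H2B genes stand head to head with a short shared promoter between them. H2A, H2B, H3 and H4 form the nucleosome core, and H1 binds the linker DNA between cores. In the annotation each of the 68 genes had a transcript with 1 exon.

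The promoter sequences below are shown because the classes differ in the letters just before their start, and because they include the most widely open H1, H2A and H3 genes, the most widely open H4 gene with a promoter entry, the most widely open gene on chr1, and an H4 gene on chr1 for which no feature was found. Each is the 220 bases before the RefSeq start (GRCh38.p14), 5′ to 3′ in the direction of transcription. They lie at chr6:26056471-26056690 (H1-2, minus strand), chr6:26216701-26216920 (H2AC8, plus strand), chr6:26032100-26032319 (H3C2, minus strand), chr6:26027284-26027503 (H4C2, minus strand), chr1:149886698-149886917 (H2AC20, plus strand) and chr1:149832437-149832656 (H4C14, plus strand). Capitals mark TATAAA, the TATA box bound by TBP, CCAAT, bound by NF-Y, ATTTGCAT, the octamer bound by POU2F1, and AAACACA, a box of H1 promoters, on either strand. In H2AC8 the only TATAAA match, TTTATA, is on the strand and side of its head-to-head partner H2BC8. The TTTATA of H2AC20 is likewise on the strand and side of H2BC21. Printed bases need not lie in a feature, and those of H2AC20 lie in none.
H1-2: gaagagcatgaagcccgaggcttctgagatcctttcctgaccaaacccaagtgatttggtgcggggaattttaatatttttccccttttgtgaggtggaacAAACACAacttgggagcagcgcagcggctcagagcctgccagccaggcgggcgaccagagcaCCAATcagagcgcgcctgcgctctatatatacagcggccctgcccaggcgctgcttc
H2AC8: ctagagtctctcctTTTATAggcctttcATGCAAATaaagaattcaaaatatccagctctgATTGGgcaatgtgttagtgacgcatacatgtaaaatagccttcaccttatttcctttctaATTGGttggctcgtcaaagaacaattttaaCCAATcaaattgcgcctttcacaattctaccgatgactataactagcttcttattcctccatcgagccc
H3C2: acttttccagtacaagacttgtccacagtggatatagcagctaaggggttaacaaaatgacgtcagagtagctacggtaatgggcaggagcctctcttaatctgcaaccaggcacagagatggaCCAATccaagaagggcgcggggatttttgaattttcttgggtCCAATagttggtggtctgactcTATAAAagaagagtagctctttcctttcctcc
H4C2: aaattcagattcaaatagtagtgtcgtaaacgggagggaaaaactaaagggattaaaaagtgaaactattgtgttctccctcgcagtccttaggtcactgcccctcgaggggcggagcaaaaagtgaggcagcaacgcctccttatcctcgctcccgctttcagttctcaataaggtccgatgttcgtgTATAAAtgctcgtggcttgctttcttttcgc
H2AC20: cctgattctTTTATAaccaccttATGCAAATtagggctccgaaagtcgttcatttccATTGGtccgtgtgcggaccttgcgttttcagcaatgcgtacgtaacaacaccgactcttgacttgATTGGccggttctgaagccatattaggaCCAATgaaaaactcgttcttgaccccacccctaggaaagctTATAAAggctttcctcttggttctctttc
H4C14: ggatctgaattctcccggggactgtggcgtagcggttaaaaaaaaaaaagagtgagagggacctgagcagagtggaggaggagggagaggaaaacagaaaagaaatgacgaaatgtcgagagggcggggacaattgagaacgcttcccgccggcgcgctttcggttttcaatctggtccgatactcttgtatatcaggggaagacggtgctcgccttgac

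Of these motifs, 3 differed in frequency between the histone classes, and TATAAA was in at least 50% of the promoters of each. In the RefSeq windows from 250 bases before to 50 after the start, which 63 of the 68 genes had (not H4C1, H4C3, H2AC12, H3C11 and H3C12), CCAAT was in 6 of 6 H1, 16 of 16 H2A, 18 of 18 H2B and 11 of 11 H3 promoters, but in 3 of 12 H4 promoters. Of all 35116 promoters in the table, 34.6% held it. ATTTGCAT was in 11 of 16 H2A and 14 of 18 H2B promoters and in 0 of the 29 promoters of the other classes, against 1.77% of all promoters. AAACACA was in 6 of 6 H1 promoters, 2 of 11 H3, 1 of 16 H2A and 0 of the H2B and H4 promoters, against 5.64% of all. TATAAA was in 42 of 63 (66.7%), against 11.5% of all, with 3 of 6 H1, 12 of 16 H2A, 12 of 18 H2B, 9 of 11 H3 and 6 of 12 H4 promoters, and the printed H1-2 and H4C14 promoters held none. Both strands were searched, and no motif is part of another. The windows of head-to-head genes overlap, so 1 match can count for both genes. The ATTTGCAT and TATAAA matches of H2AC8 and H2BC8 are such a case, so these counts are not all separate sites. A match is only a run of letters and was not tested for binding.

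Features were found within 1000 bp of the start for most, but not all, of these genes, and in few cells at each. A gene was counted as covered when 1 of the authors' features, which reach 500 bp to each side of a peak summit, lay within 1000 bp of its start and was seen in at least 2 cells. Of the 68 genes, 31 had the start itself inside a feature seen in at least 2 cells, as had 7861 of the 19965 other protein-coding genes. By the wider 1000 bp rule 44 of the 68 (64.7%, exact 95% interval 52.2 to 75.9%) were covered by 51 features, against 47.3% of all protein-coding genes. The share of passing cells (those with more than 300 features, 83 in plate 1 and 79 in plate 2) with at least 1 read pair in such a feature had a median of 3.70% over all 68 genes and of 6.17%, or 10 cells, over the 44 covered genes, where the 9428 other covered genes had 4.94%, or 8 cells. A gene's share joins all of its features. Per single feature the median was 7 cells, both for these genes and for features near other protein-coding starts. The widest share of a gene was 13.6% for H2BC8 and H2AC8, and 43.8% over all other genes. Shares of at least 10% of cells were found for 8 histone genes (11.8%), against 8.62% of all protein-coding genes, a share close to that background. Cells not seen with a read pair may have had none cut or none recovered, since passing cells had a median of only 1799.5 features (312 to 10767) and 2067.5 read pairs (345 to 15351).

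**Figure D1:**
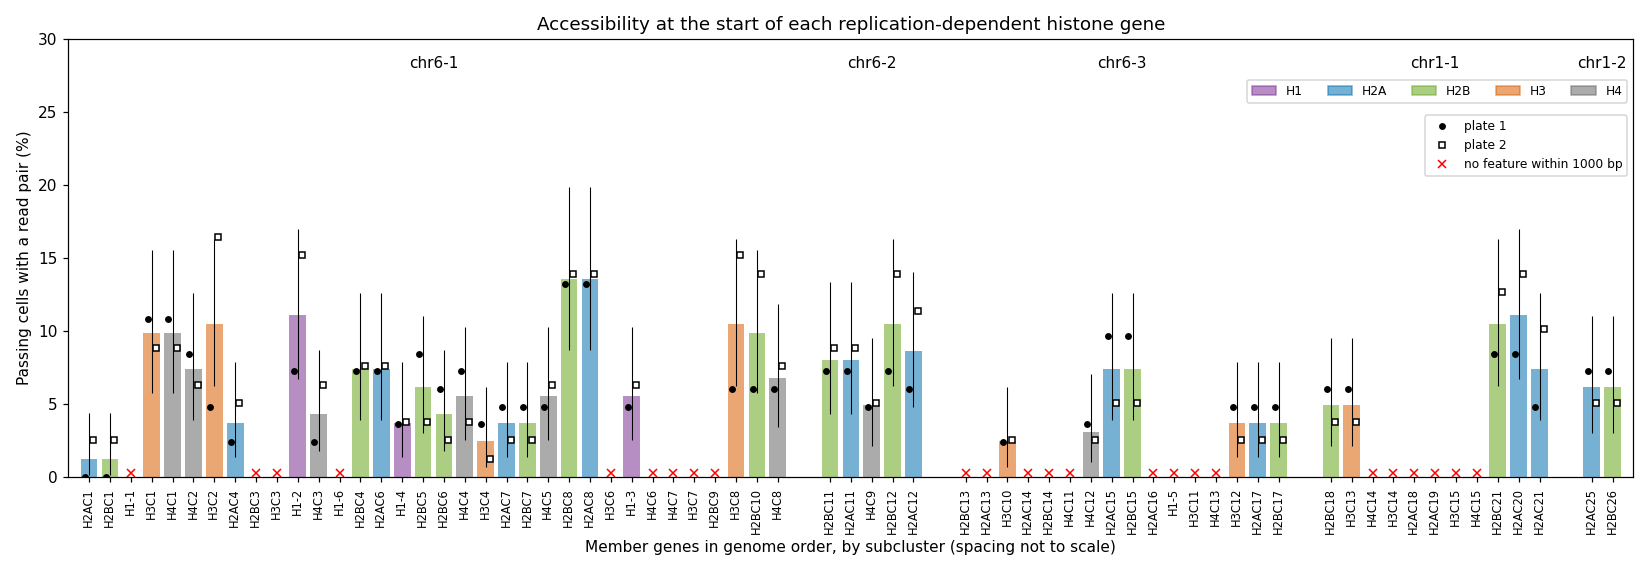
Share of the passing cells with at least 1 read pair in a feature within 1000 bp of the start of each histone gene (%, bars coloured by class, lines the exact 95% interval), with the share in plate 1 (dots, 83 cells) and plate 2 (squares, 79 cells); red crosses mark the 24 genes with no feature. The tallest bars are H2BC8 and H2AC8 (13.6%), and the longest run of crosses is the 6 genes from H4C14 to H4C15 on chr1.

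Before the histone classes are described, 1 feature of the plates bears on each count. Of 25114 features of the series seen in exactly 2 cells, 70.8% joined wells of 48 pairs on the same plate (numbers 37 to 48 with 73 to 84, and 73 to 84 with 85 to 96), called linked wells here, which held 71 of the passing cells. In 13 cases, each at a different histone gene feature, both wells of a linked pair held the feature, so some cells counted below may not be independent. Without these wells, 91 cells remained, the median of the 44 covered genes was 6.59% and that of the other covered genes 4.40%. Genes had 1 to 5 features, and a cell was counted once for a gene however many it held. H2AC1 and H2BC1 were the 2 histone genes with no cell left.

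Of the 6 linker histone genes, 3 had a feature (50.0%, 11.8 to 88.2%). H1-2, a main somatic linker histone, was seen in 6 of 83 cells of plate 1 (7.23%) and 12 of 79 cells of plate 2 (15.2%), 11.1% of all passing cells (6.72 to 16.99%). H1-3, also somatic, was seen in 4 and 5 cells (5.56%), and H1-4 in 3 and 3 (3.70%). The plate intervals of each gene overlapped. H1-2 had 2 features, centred 838 bp downstream and 641 bp upstream of the start, and neither contained the start itself. The wider of these, at chr6:26055132-26056132, lies downstream of the start and was seen in 14 cells, as many as any histone gene feature. H1-1, H1-5 and the testis-specific H1-6 had no feature. For such a gene no read pairs were counted, since counts exist only for features that the peak calling kept. Its share of 0 therefore sets no bound on the cells in which it was open.

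H2A and H2B genes, whose products pair as dimers in the nucleosome, mostly had a feature within 1000 bp of the start. For some of these, such as H2AC12 and H2BC12, no feature contained the start itself. A feature was found for 12 of 17 H2A genes (70.6%, 44.04 to 89.7%) and 14 of 18 H2B genes (77.8%, 52.4 to 93.6%). H2BC8 and H2AC8 stand head to head, 233 bp apart, and both were seen in 11 cells of plate 1 (13.3%) and 11 cells of plate 2 (13.9%). That is 13.6% of passing cells (8.71 to 19.8%), nearly the same in the plates, from 5 overlapping features of which 4 belong to both genes, so their counts are not separate observations. H2BC12 was seen in 6 and 11 cells (10.5%), and its head-to-head partner H2AC12 in 5 and 9 (8.64%). Parts of both starts have a near-identical place on chr21 (98.9% identity over 448 bp at H2BC12). Both genes were higher in plate 2, with overlapping intervals.

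On chr1, H2AC20 was seen in 7 cells of plate 1 and 11 of plate 2 (11.1%, 6.72 to 16.99%), and its head-to-head partner H2BC21 in 7 and 10 (10.5%, 6.23 to 16.3%). The starts of H2AC20 and H2BC21 lie in no feature, and neither do the printed H2AC20 bases. H2AC21, next to them, was seen in 4 and 8 cells (7.41%), through 2 features that it shares with H2AC20. These 3 genes rest on 3 features between them, and they are the most widely open members on chr1. Another protein-coding gene starts at chr1:149887890, inside 2 of these features, and was seen in 12 cells (7.41%). To which start the features belong was not tested. H2BC26, in a pair with H2AC25 far from the other chr1 genes, was seen in 6 and 4 cells (6.17%), as was H2AC25. The germline pair H2AC1 and H2BC1, whose products serve in testis and oocyte, had 1 shared feature seen in 0 cells of plate 1 and 2 cells of plate 2 (1.23%). Those cells sat in linked wells, and the feature had the lowest count of the 51.

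H3 genes held wide and absent members side by side. H3C2 was seen in 4 cells of plate 1 (4.82%, 1.33 to 11.9%) and 13 of plate 2 (16.5%, 9.06 to 26.5%), 10.5% in all, over 4 features. H3C8 was seen in 5 and 12 cells (6.02 and 15.2%), also 10.5% in all. Both were lower in plate 1, but the intervals of the plates overlap. H3C1 followed with 9 and 7 cells (9.88%), through the same features as H4C1. H3C13 on chr1 was seen in 5 and 3 cells (4.94%), again through features it shares, here with H2BC18. In all, 7 of 13 H3 genes were covered (53.8%, 25.1 to 80.8%), with H3C3, H3C6, H3C7, H3C11, H3C14 and H3C15 without a feature.

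H4 genes, which encode the most conserved core histone, reached the lowest maximum of the 5 classes. H4C1 was seen in 9 cells of plate 1 and 7 of plate 2 (9.88%, 5.75 to 15.5%), and H4C2 in 7 and 5 (7.41%, 3.89 to 12.6%). No H4 gene reached 10% of cells, while 2 H2A, 3 H2B and 2 H3 genes did, as did H1-2. Of 14 H4 genes 8 were covered (57.1%, 28.9 to 82.3%), all on chr6, and H4C6, H4C7, H4C11, H4C13, H4C14 and H4C15 were not. Across classes the median share over all genes was 5.56% for H2B, 3.70% for H2A and for H4, 2.47% for H3 and 1.85% for H1. The intervals of the covered shares overlap between all 5 classes, so no order of the classes is shown.

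**Figure D2:**
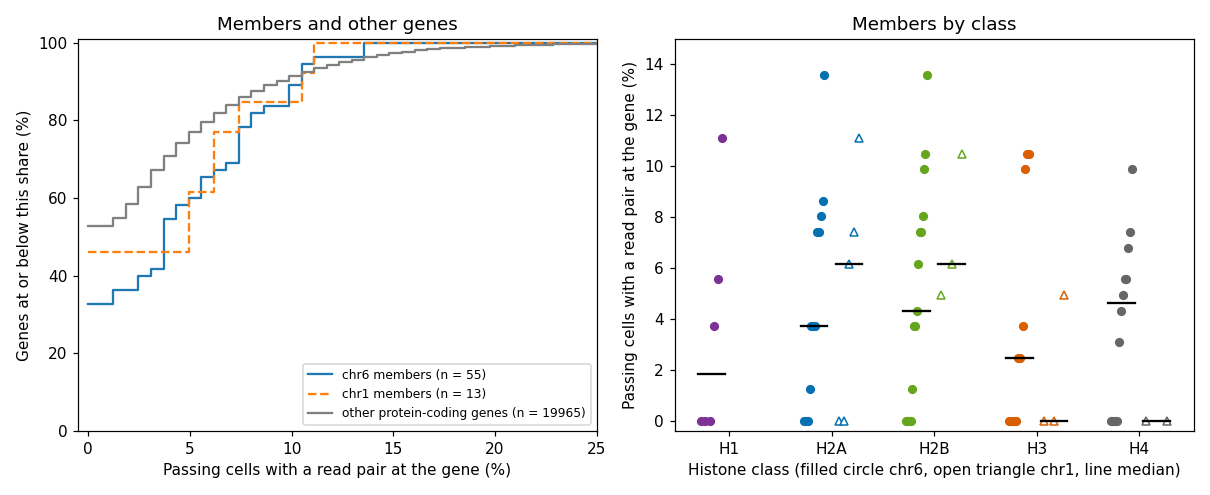
Left, the cumulative share of genes (%) at or below each share of passing cells for the 55 chr6 members, the 13 chr1 members and the 19965 other protein-coding genes; right, each member gene by class, with chr6 as filled circles, chr1 as open triangles and the median as a line. Fewer members than other genes sit at 0, while beyond 11.1% only H2BC8 and H2AC8 remain among the members.

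The chr6 and chr1 clusters could not be told apart by their covered share. On chr6, 37 of 55 genes (67.3%, 53.3 to 79.3%) had a feature, and on chr1, 7 of 13 (53.8%, 25.1 to 80.8%), with a median of 6.17% of cells over the covered genes on each. Over all genes, uncovered ones included, the median was 3.70% on chr6 and 4.94% on chr1. This order turned with the nearest feature only, and with the feature centre within 1000 bp of the start, where chr6 stayed at 3.70% and chr1 was at 1.85%. Among the other protein-coding genes of the same chromosomes, 549 of 996 on chr6 (55.1%) and 932 of 2048 on chr1 (45.5%) were covered. By class, chr1 had features at 3 of 5 H2A, 3 of 3 H2B, 1 of 3 H3 and 0 of 2 H4 genes, and no H1 member lies there. On chr6 it was 9 of 12 H2A, 11 of 15 H2B, 6 of 10 H3, 8 of 12 H4 and 3 of 6 H1 genes.

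Within chr6, coverage was uneven along the chromosome. Starts more than 500 kb apart were taken to divide the members into 5 groups, 3 on chr6 (chr6-1, chr6-2 and chr6-3) and 2 on chr1 (chr1-1 and chr1-2). In chr6-1, which spans 559.1 kb from H2AC1 to H4C8, 25 of 34 genes had a feature (73.5%, 55.6 to 87.1%). In chr6-2, 14.3 kb from H2BC11 to H2AC12, it was 5 of 5 (47.8 to 100%), with a median of 8.02% of cells. In chr6-3, 85.5 kb from H2BC13 to H2BC17, it was 7 of 16 (43.8%, 19.8 to 70.1%), and the widest genes were H2AC15 and H2BC15, in 8 cells of plate 1 and 4 of plate 2 (7.41%). The covered genes of chr6-3 had a median of 3.70%, against 6.17% in chr6-1, and the intervals of all 3 groups overlap. On chr1, 5 of 11 genes in chr1-1 (45.5%, 16.7 to 76.6%) and both genes in chr1-2 were covered.

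Uncovered genes often came in runs. The longest on chr6 are the 4 genes H4C6, H4C7, H3C7 and H2BC9 (11.2 kb), and H2AC16, H1-5, H3C11 and H4C13 (8.22 kb). H2AC14, H2BC14 and H4C11 form a run of 9.31 kb, and H2BC13 with H2AC13, and H2BC3 with H3C3, make pairs. On chr1 the run of 6 genes from H4C14 to H4C15 spans 28.5 kb. Together with the lone genes H1-1, H1-6 and H3C6 these are all 24 uncovered genes. Of the 20 other protein-coding genes that lie between chr6 members, 5 were covered (25%, 8.66 to 49.1%), among them HMGN4, a nucleosome-binding protein, in 23 cells (14.2%). Within the span of chr6-1, the 33 member features had a median of 7 cells and the 16 other features 3.5.

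The 6 uncovered chr1 genes could not be told from each other by sequence in pairs. The windows from 500 bp before to 500 bp after the start of H4C14 and H4C15, of H3C14 and H3C15, and of H2AC18 and H2AC19 are identical within each pair over their whole length, and the printed H4C14 promoter has 0 differences from that of H4C15 in 300 bases. The authors removed reads with a mapping quality under 20, and reads that fit 2 places equally well get low mapping quality. With another place counted as at least 95% identity over at least 150 bp, 15 members had one, and 7 of these (46.7%) had a feature, against 37 of the 53 without one (69.8%). H4C11 and H4C12 share 98.1% over 679 bp, and H4C12 was seen in 5 cells while H4C11 had no feature. H2BC18 and H3C13 have near-identical places elsewhere on chr1 over their whole windows (98.4%), and were still seen in 8 cells each. Of the 24 uncovered genes 16 have no such place. The part of near-identical places in the missing features was not tested.

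**Figure D3:**
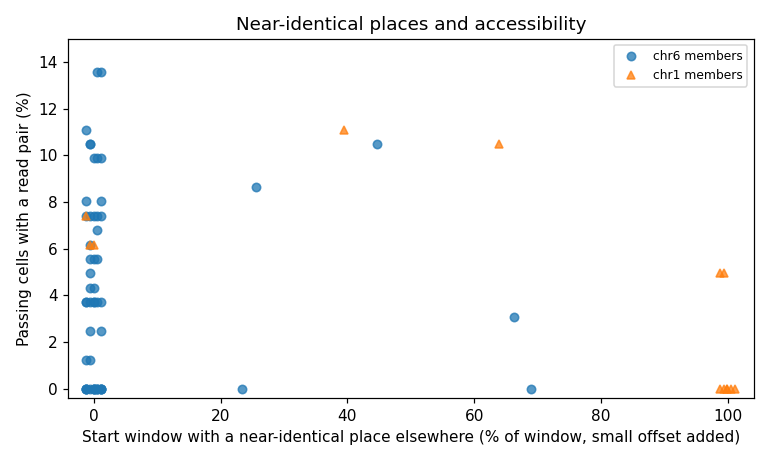
Share of the window around each start that has a near-identical place elsewhere in the genome (horizontal, % of the window, a small offset separates the points) against the share of passing cells (vertical, %), circles for chr6 and triangles for chr1. At 100% of the window stand the 6 chr1 genes with no feature, beside H2BC18 and H3C13 at 4.94%.

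The rule admits features only near a start, and within that window their place varied. The start itself was inside a feature for 31 of the 44 covered genes (70.5%), against 83.4% of the other covered genes. For 29 (65.9%) the centre of the nearest feature was within 300 bp, against 71.3% of the other covered genes. The nearest centre lay downstream for 23 genes and upstream for 21, with a feature between head-to-head genes counted once for each gene. Distances ran from 1403 bp upstream, at H3C12, to 1084 bp downstream, at H2BC17, and those genes share that single feature with H2AC17. Given the bidirectional layout, 13 head-to-head pairs with 170 to 979 bp between their starts hold 26 of the members. In 10 pairs both genes share a feature, and in 3 pairs neither gene has one. The 26 paired genes were covered in 76.9% (56.4 to 91.03%) and the 42 other members in 57.1% (40.96 to 72.3%), which overlap. Both genes of a pair were always covered or uncovered together, so the interval of the 26 counts each pair more than once and is too narrow.

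**Figure D4:**
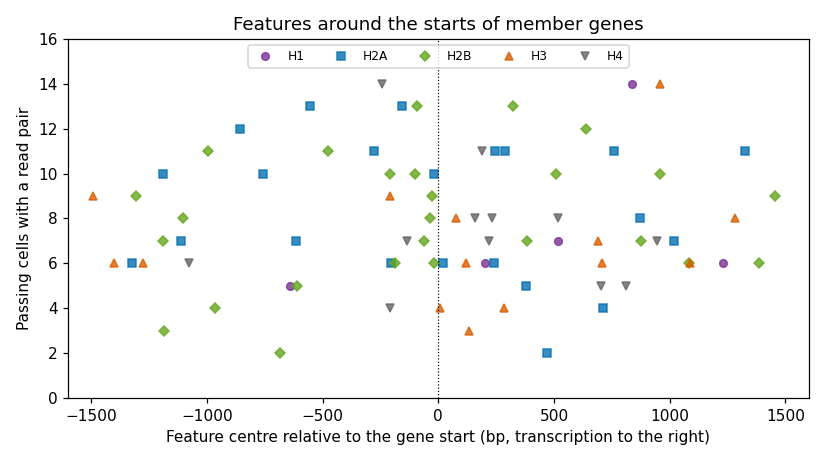
Centre of each feature relative to the start of each member gene (bp, transcription to the right, negative values upstream) against the number of passing cells with a read pair in it, by class; a feature near several genes is drawn once for each. Centres lie on both sides of the start, and the highest points reach 14 cells.

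As single features, those of the histone genes were of ordinary strength for promoters. They were seen in a median of 7 cells (2 to 14), as were the other promoter features (median 7, up to 70), and features away from starts in 3. In at least 10 cells of all wells were 13 of the 51 (25.5%), against 33.9% of the other promoter features. The most widely seen were chr6:26020907-26021907, which contains the start of H4C1 and also counts for H3C1, with 8 cells in plate 1 and 6 in plate 2, and the H1-2 feature downstream of its start with 5 and 9. A single read pair made up 84.6% of the detections, so depth within a cell says little about how open a site was. Of the 51 features, 26 belong to 2 or more members and 29 overlap another, and 30 genes share a feature with another member.

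Between the plates no histone gene feature stood apart. The exact intervals of the plates did not overlap for 0 of the 51 features, where 0.0792% of all kept features had intervals apart. Read against that background, 0 of 51 says little. The share was higher in plate 1 for 20 features and in plate 2 for 31. Of the 3 with the largest differences, 2 belong to H3C2 and 1 to both H2BC10 and H3C8. At chr6:26030907-26031907, downstream of the H3C2 start, 0 cells of plate 1 (exact interval up to 4.35%) and 7 of plate 2 (8.86%, 3.64 to 17.4%) had a read pair. At the overlapping chr6:26030510-26031510 it was 0 and 6 (7.59%, 2.84 to 15.8%). At chr6:26272404-26273404, which contains the start of H2BC10 and reaches to within 1000 bp of that of H3C8, it was 2 cells (2.41%, 0.293 to 8.44%) and 7 (8.86%). Without the linked wells, the counts were 0 of 48 and 3 of 43 cells, 0 and 2, and 0 and 3. For H3C2 as a gene they were 2 and 6 cells, and for H1-2, 2 and 5.

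Counted by cell, 92 passing cells (56.8%, 48.8 to 64.5%) had a read pair in at least 1 histone gene feature. It was 41 of 83 in plate 1 (49.4%, 38.2 to 60.6%) and 51 of 79 in plate 2 (64.6%, 52.99 to 75%), which overlap. The count followed the depth of the cell. With the cells ranked by features and cut into 3 sets of 54, it was 31.5% of cells in the lowest set, 59.3% in the middle and 79.6% in the highest, while the share of detected features that are histone gene features was 0.0848, 0.102 and 0.100%. Over all passing cells that share was 0.0990% (0.0894 to 0.109%), or 389 of 392990 detections, and 0.0922% in plate 1 and 0.106% in plate 2, again with overlapping intervals. Chr6 features were seen in 86 cells and chr1 features in 29, with 23 cells holding both. The most in 1 cell was 15 of the 51 features. Cell cycle phase was not measured, so cells in and out of S phase could not be compared.

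**Figure D5:**
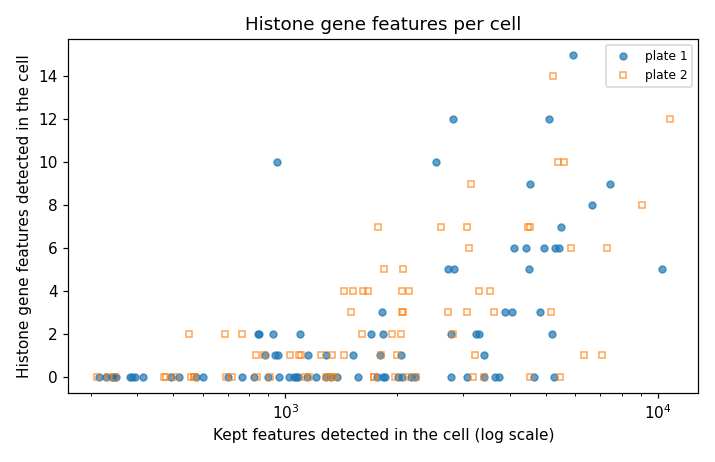
Features detected in each passing cell (horizontal, log scale) against the number of histone gene features among them (vertical), for plate 1 (dots) and plate 2 (squares). Cells with many features hold more histone gene features in both plates, up to 15.

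Base composition, which the rule did not use, varied among the members. The GC content within 500 bp of the start had a median of 50.95%, with a range of 40.2 to 61.5%, against a median of 59.2% for other protein-coding genes. The ratio of observed to expected CpG had a median of 0.859 (0.608 to 1.04), against 0.687. On chr1 the medians were 57.9% and 0.951, and on chr6 50.1% and 0.847. H1 genes had a median CpG ratio of 0.661. Covered and uncovered members had medians of 50.6 and 51.7% for GC and of 0.855 and 0.864 for the CpG ratio. By motif, ATTTGCAT was in 20 of 40 covered promoters and 5 of 23 uncovered ones, as a description, since this follows the histone class too. The coding sequences had median identities between genes of equal length of 85.6% for H2A, 89.8% for H2B, 85.3% for H3 and 83.8% for H4. Identity reached 100% only within H2AC18 and H2AC19, H3C14 and H3C15, H4C14 and H4C15, and H4C11 and H4C12.

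The genes that serve the histone gene clusters from elsewhere in the genome were described by the same measure. Of 14 genes for transcription and processing of histone mRNA, 10 had a feature (71.4%, 41.9 to 91.6%). The 47.3% of all protein-coding genes lies within that interval. NPAT was the widest with 12 cells of plate 1 and 15 of plate 2 (16.7%, 11.3 to 23.3%). POU2F1, the octamer factor, followed with 17 and 6 cells (14.2%), and CASP8AP2, a component of the histone locus body, with 12 and 8 (12.3%). ERI1, an exonuclease that trims histone mRNA, was seen in 13 cells, CPSF3, the nuclease that cuts the 3′ end, in 11, LSM11, of the U7 particle, in 11, HINFP, an H4 promoter factor, in 7, CCNE1 in 6, CDK2 in 5 and SYMPK in 3. SLBP, which binds the stem-loop, LSM10, CPSF2 and ZNF473 had no feature. All 5 histone chaperones had one (exact interval 47.8 to 100%, against the same 47.3%). They ran from ASF1A with 21 cells (12.96%) and NASP with 12 to CHAF1B with 6 and CHAF1A and ASF1B with 5 each.

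Histone variants whose synthesis is not limited to S phase are encoded apart from the clusters. Of the 11 listed variants found in the annotation, 7 had a feature (63.6%), against 47.3% of all protein-coding genes. H2AZ1 was seen in 15 cells of plate 1 and 14 of plate 2 (17.9%, 12.3 to 24.7%), more than any replication-dependent gene, with intervals that overlap that of H2AC8. H3-3A was seen in 11 cells, H2AZ2 in 10, H1-10 in 9, H2AX in 8, MACROH2A2 in 6 and CENPA, the centromeric H3, in 4. Among those with none were MACROH2A1, H2AJ and H3-3B. On the cell line itself, 4 of 5 markers of attached cells had a feature (CAV1 in 22 cells, YAP1 in 14, VIM in 11 and CD44 in 9, LGALS1 in 0). Of 5 blood markers (PTPRC, CD34, GATA1, SPI1 and TAL1), 0 had one. The exact intervals, 28.4 to 99.5% and 0 to 52.2%, both hold the 47.3% of all protein-coding genes. With 5 genes a list, chosen with earlier results known, this describes the line and is no check of it.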

How the data were processed

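According to the Methods, the authors processed each nucleus on its own: reads were trimmed, reads with a CASB barcode taken out, the rest aligned to hg38 with bowtie2, and mitochondrial reads, reads with a mapping quality under 20 and duplicates removed. Peaks were called with MACS2 on the nuclei of both plates together and widened by 500 bp to each side of the summit. The authors then counted read pairs in each feature and nucleus with featureCounts (version 1.6.0) and deposited these counts without normalization. Pairs overlapping several features count in each, and reads have no molecular identifiers. Every column was matched to 1 nucleus, and 0 were left over.

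Counts were read as present or absent. Features in at least 2 nuclei (77053 of 80971) and nuclei with more than 300 of them (83 in plate 1 and 79 in plate 2) were kept. Starts are the 5′ ends of GENCODE (version 44) genes on GRCh38. Promoter letters came from the RefSeq table. RefSeq places the start of H2BC6 11702 bp and that of H4C8 104 bp from the GENCODE start, so the letters of H2BC6 are not those beside its feature. Near-identical places were found with blastn (version 2.17.0). Intervals on shares are Clopper-Pearson at 95% and describe counting error alone. Intervals on shares of genes take each gene as separate, though 30 members share a feature with another, so they may be too narrow. With 1 sample a plate no test was made. The counting was tested on simulated data. The list of histone variants is not reported in full here. The members and lists were chosen with earlier results of these data known. Genes named with plate counts are the 2 widest in each class on each chromosome, the members with no feature, those of the 3 features that differ most between plates, and the germline members; others were named after their values were seen. The counts and shares were recomputed with other rules for starts, features and cells. The scripts ran in Python 3.11.15 with matplotlib 3.10.9, pandas 2.3.3, SciPy 1.17.1 and NumPy 2.4.6.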

Additional observations from a re-analysis of the deposited data

How the results depend on the processing

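No paired analysis was possible because each plate is 1 sample and no test was made. Leaving out a plate was not run, since each plate is given on its own. Of 60 values under other settings, 44 stayed within the interval or within 1.5 times of the reported count, and 16 moved. For a median over genes, this was the interval of 1 gene seen in that share of cells, not an interval of the median. By the 1.5-fold rule, 31 covered genes, with the start required inside a feature, counted as unchanged from the reported 44 genes. The tally is therefore only a loose guide. Of the 60, 10, with RefSeq starts and without H2AC1 and H2BC1, were chosen after seeing the data, and none of these 10 moved.

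Stricter rules left fewer features by construction. With a feature required to contain the start, the median over all, chr6 and chr1 members was 0%, and the share of detections 0.0595%. With the centre within 1000 bp, the chr1 median was 1.85%, below the 3.70% of chr6, and the share of detections 0.0888%. With the nearest feature only, it was 1.85% and again below 3.70% on chr6. With features of at least 10 cells, 18 genes were covered and all 3 medians were 0%. Thinned to 600 read pairs (73 cells in each plate, leaving out 10 and 6 shallower ones), the medians were 0.685%, or 1 cell, over all and over chr6 members and 2.05% over chr1 members. Without linked wells the share of detections was 0.124%, and the cause was not tested. Over the 53 genes without a near-identical place it was 0.0880%, with fewer genes by construction. Depth is 1 limit, since most detections rest on 1 read pair.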
